A study of Mus musculus with 6 samples.

Results

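*Tgfbi* and *Postn* encode secreted matrix proteins that share the fasciclin (FAS1) domain. The genes were found by symbol in a table of 24421 genes, and both of these 2 members were present and passed the filter on low counts, which left 13479 genes to be tested. They were chosen from earlier results of the same contrast, in which *Tgfbi* stood out as higher in *Nhe6*-knockout cells. Their levels are therefore given as a description, without a test.

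RNA was sequenced from primary endothelial cell cultures of the stria vascularis, the vascularized epithelium of the cochlear lateral wall. Per the methods, the stria vascularis was dissected and dissociated together with the spiral ligament. The cultures came from mice on postnatal days 10 to 12, with 3 *Nhe6*-knockout and 3 wildtype cultures and at least 6 mice pooled per culture, and none was treated. The knockout is a targeted disruption of *Nhe6* in every cell of the animal. It was made on a 129P2 background and then backcrossed, and the labels name C57BL/6N as the background of all 6 samples while the methods name C57bl6/j, so the strain background and the genotype cannot be told apart. Cells were purified by sorting and grown on collagen before lysis.

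The libraries held 25587097 to 29126232 reads assigned to genes. Levels are given as counts-per-million values (CPM, scaled by edgeR's TMM method). Wildtype replicate 2 stood apart on the first principal component of log2 CPM, at 106.2 against -28.5 to -6.5 in the other libraries. *Nhe6*-knockout replicates 1 and 2 lay closer to each other than any other pair within a genotype, though further apart than sampling noise alone gives (chi-square per degree of freedom 4.91, against 90.1 to 398). Of 12 listed endothelial markers, 5 were below the filter, with *Cldn5* at 0 reads and *Pecam1* at no more than 8 reads in any library, while *Emcn* and *Eng* ranged from 14.9 to 667 CPM and from 31.5 to 184 CPM. Fibroblast markers summed to 1825 to 1929 CPM in *Nhe6*-knockout and 1458 to 2101 CPM in wildtype cultures. In such bulk cultures, fewer cells of a type and less RNA per cell cannot be told apart.

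TGFBI (TGF-beta-induced protein, also called keratoepithelin or beta ig-h3) and periostin carry an N-terminal cysteine-rich EMI domain followed by repeated FAS1 domains. Both bind collagens and fibronectin and are ligands of integrins, and both genes are classical targets of TGF-beta. TGFBI is known from the cornea, where mutations in its gene lead to protein deposits. Periostin is known from periosteum, periodontal ligament, heart valves and healing wounds, where it assists collagen crosslinking by bringing the protease BMP1 to lysyl oxidase. The family has 2 other mammalian genes, *Stab1* and *Stab2*, which encode the scavenger receptors stabilin-1 and stabilin-2.

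*Tgfbi* lies on the plus strand of chromosome 13 of GRCm38 (13:56609523-56639562) and *Postn* on the plus strand of chromosome 3 (3:54361109-54391037). No other annotated gene overlapped either of them. The longest coding sequence had 683 codons in 17 exons for *Tgfbi* and 838 codons in 23 exons for *Postn*. *Tgfbi* had 1 protein-coding transcript in GENCODE M21 and *Postn* had 5, with 4 different lengths of complete coding sequence, the shortest of 2352 bases. Counts per gene do not separate these *Postn* isoforms. Aligned over 1957 bases, the coding sequences were 63.8% identical. Their longest shared exact run was 20 bases, shorter than the 75 bp reads.

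A feature that the pair does not share is the integrin-binding Arg-Gly-Asp motif. *Tgfbi* had 1 in-frame run of codons for it, starting at codon 642 and followed by 39 further codons before the stop, and *Postn* had 0 in its longest coding sequence. The stretch is shown from the GENCODE transcript, 5′ to 3′, with the codons for the motif in capitals.
Tgfbi: ccacaagaaCGAGGAGATgagctggca

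The sequences upstream of the annotated starts are shown to compare what precedes the pair of genes, from RefSeq on GRCm38.p6 (plus strand, 5′ to 3′), for 187 bases before the *Tgfbi* start in GENCODE (chr13:56609336-56609522) and 250 bases before the *Postn* start in RefSeq (chr3:54360857-54361106). Capitals mark matches, on either strand, to the Smad element CAGAC, the TATA box TATAAA or the GC box GGGCGG.
Tgfbi: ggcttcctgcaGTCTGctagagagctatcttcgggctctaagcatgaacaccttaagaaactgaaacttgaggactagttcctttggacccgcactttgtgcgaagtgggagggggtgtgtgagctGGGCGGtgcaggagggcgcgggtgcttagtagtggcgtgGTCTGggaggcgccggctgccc
Postn: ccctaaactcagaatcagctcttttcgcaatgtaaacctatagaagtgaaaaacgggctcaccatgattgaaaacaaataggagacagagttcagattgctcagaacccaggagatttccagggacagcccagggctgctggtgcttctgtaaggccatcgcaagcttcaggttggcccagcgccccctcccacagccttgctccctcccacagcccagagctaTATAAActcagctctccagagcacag
In the RefSeq windows of 250 bases before to 50 bases after the start, *Tgfbi* held 2 matches to CAGAC, 2 to GGGCGG, of which 1 lies past the stretch shown, and no TATAAA. The *Postn* window held 1 TATAAA and no match to the other motifs. Among 32851 promoters of the same length, 49.6% held CAGAC, 35.7% held GGGCGG and 13.6% held TATAAA. Neither window held an E-box (CANNTG, in 72.3% of promoters) or an AP-1 site (TGANTCA, in 7.8%). The GC content was 63.3% for *Tgfbi* and 53.0% for *Postn*. A second RefSeq start of *Postn* lies further upstream, and its window held 1 CAGAC and no match to the other 4 motifs.

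*Tgfbi* had 34455, 38635 and 32324 reads in the *Nhe6*-knockout cultures and 7307, 7929 and 6927 reads in the wildtype cultures, each in the order of replicates 1 to 3. Scaled, these were 1328, 1303 and 1110.2 CPM in *Nhe6*-knockout and 259, 297 and 269 CPM in wildtype cultures. All *Nhe6*-knockout cultures were high and all wildtype cultures low, with a wide gap between the genotypes. The lowest *Nhe6*-knockout culture was 3.74-fold above the highest wildtype culture. The means were 1247 ± 119 CPM (SD, n = 3) and 275 ± 19.5 CPM (SD, n = 3), a 4.53-fold ratio and a log2 fold change of 2.18 with a standard error (SE) of 0.16. Within a genotype the level varied by 1.20-fold in *Nhe6*-knockout and 1.15-fold in wildtype cultures. Wildtype replicate 2, which stood apart across genes, was no exception for *Tgfbi*, at 1.12 times the mean of the other wildtype cultures.

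*Postn* had 430.2, 404 and 409.7 CPM in the *Nhe6*-knockout cultures and 148, 384 and 141 CPM in the wildtype cultures, each in the order of replicates 1 to 3. The underlying counts were 11164, 11992 and 11927 reads in *Nhe6*-knockout and 4174, 10255 and 3629 reads in wildtype cultures. The *Nhe6*-knockout cultures lay close together, and wildtype replicate 2 lay just below them while the other wildtype cultures were much lower. The genotypes did not overlap, but the lowest *Nhe6*-knockout culture was only 1.05-fold above wildtype replicate 2. The means were 415 ± 13.6 CPM (SD, n = 3) and 224 ± 138 CPM (SD, n = 3), a 1.85-fold ratio and a log2 fold change of 0.89 (SE 0.41). The coefficient of variation was 3.29% among *Nhe6*-knockout and 61.7% among wildtype cultures. Without wildtype replicate 2 the wildtype mean was 144 CPM, the ratio 2.87 and the log2 fold change 1.52 (SE 0.12).

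**Figure D1:**
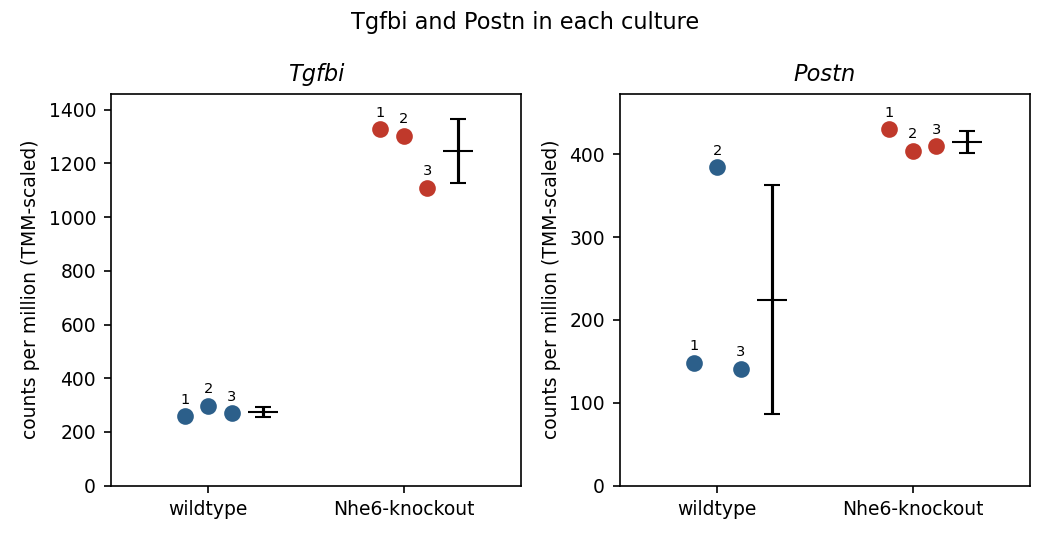
TMM-scaled CPM of Tgfbi (left) and Postn (right) in each culture, with wildtype in blue and Nhe6-knockout in red, replicate numbers above the points, and the mean with its SD over 3 cultures in black. Tgfbi separates the genotypes in every culture, and Postn of wildtype replicate 2 (384 CPM) sits beside the Nhe6-knockout cultures (404 to 430.2 CPM).

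Of the 13479 genes tested between the genotypes, 9 (0.0668%) fell below an adjusted p of 0.05 in edgeR's quasi-likelihood test, which is termed called here, and 4 of them (0.0297% of all tested) were higher in *Nhe6*-knockout cells. *Tgfbi* was among these 4 and *Postn* was not among the 9, which is stated as a description, because this contrast chose the members. Each *Nhe6*-knockout library was above each wildtype library for 10.3% of all genes tested and below each for 9.57%, and both members belong to the former. The median log2 fold change over all genes tested was -0.02, and 219 genes had a value of 2 or more.

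Per length of exon, *Tgfbi* was the more abundant of the pair in *Nhe6*-knockout cells. It averaged 459 ± 43.9 CPM per kilobase in *Nhe6*-knockout against 101 ± 7.20 in wildtype cultures, and *Postn* averaged 126 ± 4.15 against 68.2 ± 42.1 (SD, n = 3 each). The mean level of *Tgfbi* ranked 62 among 13411 genes with a length in *Nhe6*-knockout cultures and 526 in wildtype cultures. *Postn* ranked 356 in *Nhe6*-knockout cultures, and 1478, 453 and 1500 in wildtype replicates 1, 2 and 3. Within a library, the ratio of *Tgfbi* to *Postn* per kilobase was 3.74, 3.90 and 3.28 in *Nhe6*-knockout cultures against 2.12, 0.937 and 2.31 in wildtype cultures, again in replicate order. *Tgfbi* was thus the higher in 5 of the 6 libraries, and the pair was at a like level in wildtype replicate 2.

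**Figure D2:**
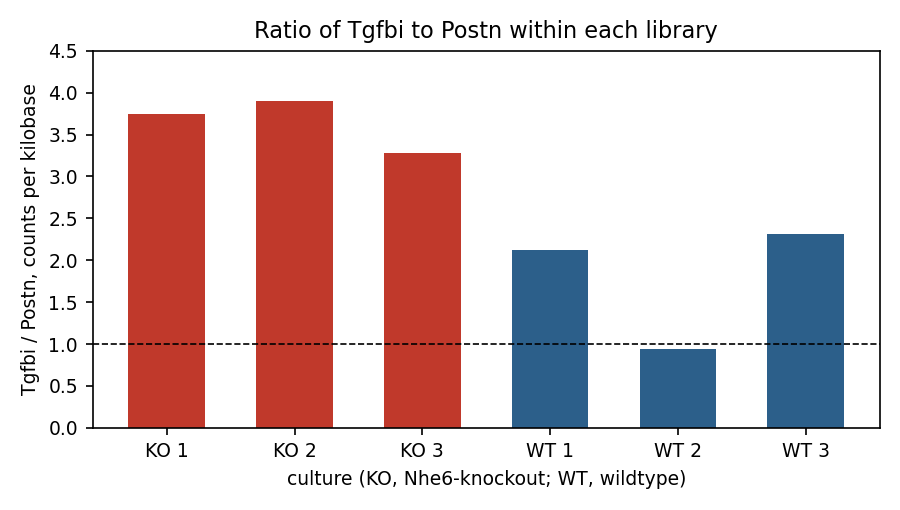
Ratio of Tgfbi to Postn in each library, both in CPM per kilobase of exon, with Nhe6-knockout cultures in red, wildtype cultures in blue and a dashed line at equal levels. The ratio is 3.28 to 3.90 in Nhe6-knockout cultures and falls below the line in wildtype replicate 2 only (0.937).

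The other FAS1 genes, the stabilins, were expressed weakly and neither passed the threshold. *Stab1*, a receptor of macrophages and sinusoidal endothelium, had 9.13, 13.5 and 3.30 CPM in the *Nhe6*-knockout cultures and 12.4, 0.112 and 2.25 CPM in the wildtype cultures, each in the order of replicates 1 to 3. The genotypes overlapped, and the log2 fold change was 0.81 (SE 1.3, edgeR adjusted p = 0.856). *Stab2*, a hyaluronan scavenger receptor, averaged 1.85 ± 0.423 CPM in *Nhe6*-knockout against 2.77 ± 1.11 CPM in wildtype cultures (SD, n = 3 each), a log2 fold change of -0.58 (SE 0.42, edgeR adjusted p = 0.653). Wildtype replicate 2, low in *Stab1*, had 3.33 CPM over all 10 listed macrophage markers, against 48.4 to 125 CPM in the other libraries.

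The matrix proteins that bind TGFBI or periostin, or act with them in collagen assembly, were followed as a list of 15 genes, all of which were tested. In edgeR's test 0 of the 15 were called and 4 had an unadjusted p under 0.05 (11.8% of all genes tested had one), of which 3 were higher. DESeq2 called 3 of the 13 to which it gave an adjusted p, all higher, against 4.69% of all genes with one. It gave none to *Col1a1* and *Col12a1*. For 5 of the 15 genes each *Nhe6*-knockout library was above each wildtype library, against 10.3% of all genes tested. The list's median log2 fold change was 0.26. *Tnc*, which encodes the periostin partner tenascin-C, had 576, 597 and 1753 CPM in *Nhe6*-knockout against 151, 58.1 and 224 CPM in wildtype replicates 1 to 3. It was highest in *Nhe6*-knockout replicate 3 and lowest in wildtype replicate 2, a log2 fold change of 2.75 (SE 0.66, edgeR adjusted p = 0.175, DESeq2 adjusted p = 1.99e-04). *Dcn*, encoding the small proteoglycan decorin, had 147, 139 and 175 CPM in *Nhe6*-knockout against 71.5, 67.6 and 91.2 CPM in wildtype replicates 1 to 3. Its log2 fold change was 1.00 (SE 0.17, edgeR adjusted p = 0.0952, DESeq2 adjusted p = 5.42e-05). *Col5a1*, a fibril-nucleating collagen chain, averaged 904 ± 107 CPM in *Nhe6*-knockout against 424 ± 144 CPM in wildtype cultures (SD, n = 3 each). The log2 fold change of this gene was 1.09 (SE 0.27, edgeR adjusted p = 0.182, DESeq2 adjusted p = 0.00540), and without wildtype replicate 2 the adjusted p from edgeR was 0.0236.

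The fibronectin gene had a value of the opposite sign and was not called. *Fn1* averaged 1485 ± 356 CPM in *Nhe6*-knockout against 2844 ± 1107 CPM in wildtype cultures (SD, n = 3 each), a log2 fold change of -0.94 (SE 0.37, edgeR adjusted p = 0.399). The genes of the crosslinking step that periostin assists did not pass the threshold. *Lox*, encoding lysyl oxidase, had 4513 ± 1914 and 5121 ± 1909 CPM (SD, n = 3 each) in *Nhe6*-knockout and wildtype cultures, and *Bmp1* had 302 ± 34.6 and 234 ± 88.8 CPM. *Col1a2*, *Col3a1* and *Bgn*, also among the most counted genes of the list, had adjusted p between 0.686 and 0.968 in edgeR's test.

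For several matrix genes the wildtype mean rested on replicate 2, as it did for *Postn*. *Col1a1*, encoding a chain of collagen I, had 986 CPM there, against 7.52 and 7.73 CPM in the other wildtype cultures and 18.6 to 44.5 CPM in *Nhe6*-knockout cultures. This gave a log2 fold change of -3.35 with all libraries and 2.10 without wildtype replicate 2. *Col12a1* had 2999 CPM in wildtype replicate 2, against 46.9 and 133 CPM in the others and 429 to 1043 CPM in *Nhe6*-knockout cultures. The smooth muscle actin gene *Acta2* had 590.5 CPM in wildtype replicate 2, 1.06 and 2.56 CPM in the other wildtype cultures and 10.2 to 43.7 CPM in *Nhe6*-knockout cultures. Wildtype replicate 2 was 2.66 times the mean of the other wildtype cultures for *Postn*, a ratio reached by 417 of 11127 genes with at least 100 normalized counts (3.75%). The ratio of 1.12 for *Tgfbi* was reached by 37.0% of these genes. The part of this library's other features in its *Postn* level was not tested.

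Integrins that bind TGFBI or periostin, with the adhesion kinases *Ptk2* and *Ilk*, were a list of 11 genes, all tested. None of the 11 was called by edgeR or DESeq2, and 1 had an unadjusted p under 0.05 (11.8% of all genes tested had one). This was *Itgb3*, the beta-3 chain of the vitronectin receptor, averaging 6.33 ± 1.12 CPM in *Nhe6*-knockout against 10.5 ± 2.71 CPM in wildtype cultures (SD, n = 3 each). Its change on the log2 scale was -0.74 (SE 0.27, edgeR adjusted p = 0.360). *Itgav*, encoding its partner chain, had 369.9 ± 49.4 and 360.3 ± 134 CPM, and *Itgb5*, another partner of alpha-v, had 209.7 ± 21 and 260.0 ± 59.9 CPM (SD, n = 3 each). *Itgb1* was detected at 3251 to 3671 CPM in *Nhe6*-knockout and 1609 to 5041 CPM in wildtype cultures. The median log2 fold change of the list was 0.01, with values from -0.74 to 0.44, and without wildtype replicate 2 it was 0.32, with values from -0.55 to 1.44.

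TGF-beta ligands, latency proteins, receptors and Smads were a list of 14 genes, all tested. Neither edgeR's test nor DESeq2 called any of them (0 of 14 each). An unadjusted p under 0.05 in edgeR's test was found for 2 of them, against 11.8% of all genes tested. *Ltbp2*, which encodes a protein of elastic fibres named for the family of latent TGF-beta binding proteins, averaged 113 ± 56.9 CPM in *Nhe6*-knockout against 41.4 ± 22.2 CPM in wildtype cultures (SD, n = 3 each). Its log2 fold change was 1.45 (SE 0.48, edgeR adjusted p = 0.319). *Acvrl1*, encoding the receptor ALK1, had 21.2 ± 1.61 and 11.2 ± 3.76 CPM (SD, n = 3 each), a log2 fold change of 0.92 (SE 0.28, edgeR adjusted p = 0.273). The ligand genes *Tgfb1*, *Tgfb2* and *Tgfb3* overlapped between the genotypes, with 14.9 ± 3.72 CPM in *Nhe6*-knockout and 19.8 ± 10.9 CPM in wildtype cultures for *Tgfb1* (SD, n = 3 each). Those for the TGF-beta receptors also overlapped, unlike *Acvrl1*. *Tgfbr2*, the ligand-binding receptor, had 532 ± 120 and 524 ± 56.7 CPM (SD, n = 3 each), and *Tgfbr1*, *Tgfbr2* and *Tgfbr3* had adjusted p between 0.975 and 0.983 in edgeR's test. *Smad4*, the shared partner of the receptor-activated Smads, was lower in each *Nhe6*-knockout library than in each wildtype library by a small amount, a log2 fold change of -0.16 (SE 0.11, edgeR adjusted p = 0.645).

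Other target genes of TGF-beta were a list of 15 genes, all tested, which leaves out the members. None of the 15 was called by edgeR or DESeq2, and none had an unadjusted p under 0.05 (11.8% of all genes tested had one). None separated the genotypes in every library, against 10.3% of all genes tested that did so as higher and 9.57% as lower in *Nhe6*-knockout. In a list of this size, such shares amount to few genes. The log2 fold change was above 0 for 4 of them, with a median of -0.11, but without wildtype replicate 2 it was above 0 for 12 of them, with a median of 0.15. *Smad7*, encoding an inhibitor of the pathway, averaged 58.6 ± 39.6 CPM in *Nhe6*-knockout against 50.7 ± 7.67 CPM in wildtype cultures (SD, n = 3 each). *Pmepa1*, another feedback inhibitor, had 115 to 124 CPM in *Nhe6*-knockout cultures and 115, 207 and 107 CPM in wildtype replicates 1 to 3. Like *Postn*, *Ctgf* was highest among wildtype cultures in replicate 2, at 301 CPM against 69.7 and 87.8 CPM, but the *Nhe6*-knockout cultures had 68.3 to 137 CPM. No test of the members against these targets was made, because the members were chosen on their values.

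**Figure D3:**
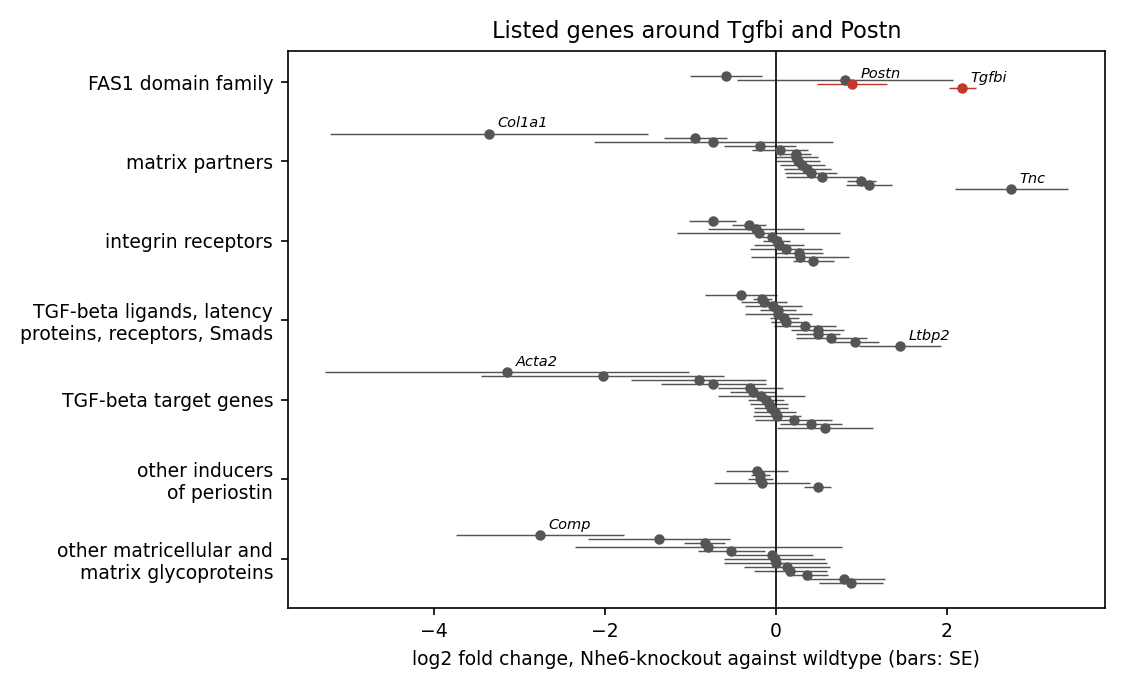
Log2 fold change (Nhe6-knockout over wildtype, from edgeR) of every tested gene in the FAS1 family and 6 lists related to it, 1 point per gene with its SE as a bar, the members in red and other genes in grey. The members lie at 2.18 and 0.89, and the TGF-beta targets have a median of -0.11, which is 0.15 without wildtype replicate 2.

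Other inducers of periostin were a list of 7 genes, of which 5 were tested. The genes of the cytokines interleukin-4 and interleukin-13, which induce periostin in many cells, had 0 reads in all 6 libraries. None of the 5 was called by edgeR or DESeq2, and 1 had an unadjusted p under 0.05 (11.8% of all genes tested had one). This was *Il4ra*, the receptor chain that the cytokines share, averaging 29.2 ± 2.86 CPM in *Nhe6*-knockout against 20.8 ± 2.80 CPM in wildtype cultures (SD, n = 3 each). The log2 fold change of this gene was 0.49 (SE 0.16, edgeR adjusted p = 0.309), and the genotypes did not overlap. *Twist1*, a transcription factor that drives *Postn* in bone, was the other gene without overlap, with 45.1 ± 2.41 and 51.0 ± 2.28 CPM (SD, n = 3 each) and a log2 fold change of -0.18 (SE 0.11, edgeR adjusted p = 0.595). Of all genes tested, 10.3% were higher and 9.57% lower in *Nhe6*-knockout without overlap. *Twist1* did not follow *Postn* among wildtype cultures, at 48.5, 53.0 and 51.4 CPM in replicates 1 to 3. The related *Twist2*, at a lower level, was highest in wildtype replicate 2 as *Postn* was, at 2.06, 6.78 and 1.79 CPM in wildtype replicates 1 to 3. The log2 fold change of *Twist2* was -0.16, or 0.71 without wildtype replicate 2.

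Other matricellular and matrix glycoprotein genes, outside the FAS1 family, were a list of 16 genes. Of these 13 were tested, as *Thbs4*, *Tnn* and *Tnr* fell below the filter. None of the 13 was called by edgeR or DESeq2, and the median log2 fold change was -0.01, or -0.17 without wildtype replicate 2. *Comp* and *Ecm1* had an unadjusted p under 0.05 (11.8% of all genes tested had one), with values below 0. *Ecm1*, a secreted glycoprotein gene, averaged 110.0 ± 8.50 CPM in *Nhe6*-knockout against 196 ± 63.5 CPM in wildtype cultures (SD, n = 3 each), a log2 fold change of -0.83 (SE 0.24, edgeR adjusted p = 0.254). *Thbs2*, encoding the anti-angiogenic thrombospondin-2, had 672 ± 128 and 365 ± 161 CPM (SD, n = 3 each), without overlap, and a log2 fold change of 0.88 (SE 0.37, edgeR adjusted p = 0.433). *Igfbp7*, encoding a secreted binding protein of insulin-like growth factors, was the other gene higher in each *Nhe6*-knockout library (10.3% of all genes tested were). Its log2 fold change was 0.80 (SE 0.47, edgeR adjusted p = 0.569). The most counted gene of the list, *Spp1* for osteopontin, had 4227 ± 1984 and 4261 ± 2389 CPM (SD, n = 3 each). *Thbs1* behaved like *Col12a1*, with 2807 CPM in wildtype replicate 2, 33.8 and 102 CPM in the other wildtype cultures and 233 to 1219 CPM in *Nhe6*-knockout cultures.

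The genes with the most similar pattern over the 6 libraries were ranked by the root mean square difference in log2 CPM, each gene centred on its own mean, among 11126 genes with at least 100 normalized counts. This is a description of the pattern that chose the members. For *Tgfbi* the nearest were *Ptprn* (0.169), *Parpbp* (0.191), *Gm7120* (0.191), *Bub1b* (0.194) and *Nusap1* (0.195). *Ptprn*, encoding a protein of dense-core vesicles, had 24.5, 29.0 and 29.5 CPM in *Nhe6*-knockout against 6.49, 6.51 and 6.41 CPM in wildtype replicates 1 to 3. *Bub1b* and *Nusap1*, which encode mitotic proteins, had their lowest *Nhe6*-knockout level in replicate 3, at 15.6 and 14.8 CPM, and *Tgfbi* was also lowest there. *Parpbp* was lowest there too, at 6.29 CPM, while *Ptprn* and *Gm7120* had their highest level there, at 29.5 and 32.3 CPM. For *Postn* the nearest were *Psrc1* (0.119), *1700007K13Rik* (0.125), *Ddias* (0.163), *Notch1* (0.169) and *Cacna1g* (0.172). *Notch1*, a receptor of vessel patterning, had 34.7, 41.8 and 39.7 CPM in *Nhe6*-knockout against 15.4, 42.2 and 16.4 CPM in wildtype replicates 1 to 3. All 5 genes nearest to *Postn* had a high level in wildtype replicate 2, close to that of the *Nhe6*-knockout cultures. The members differed from each other by 0.704, so *Postn* ranked 216 among the genes nearest to *Tgfbi*, and *Tgfbi* ranked 4210 among those nearest to *Postn*.

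**Figure D4:**
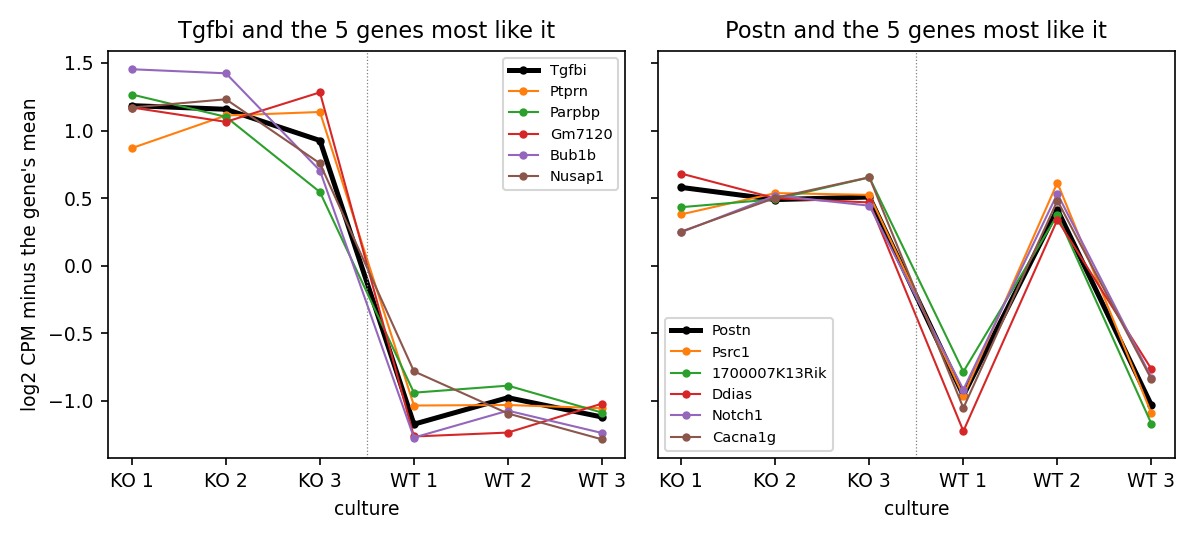
Log2 CPM, centred on each gene's mean, in the 6 libraries for Tgfbi (left) and Postn (right) in black, with the 5 genes nearest to each by root mean square difference in colour (KO, Nhe6-knockout, and WT, wildtype, with replicate numbers). The Tgfbi group is low in all 3 wildtype libraries, and the Postn group is low in wildtype replicates 1 and 3 only.

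Genes close to the members on the chromosome did not pass the test. Only genes with a row in the deposited counts were looked at. Within 500 kb of the *Tgfbi* start lay 12 other such genes, of which 4 were tested. Of these, 0 had an unadjusted p under 0.05 in edgeR's test or a DESeq2 call. *Smad5*, which encodes a BMP-activated Smad and starts 93.5 kb downstream, averaged 158 ± 19.8 CPM in *Nhe6*-knockout against 124 ± 25.5 CPM in wildtype cultures (SD, n = 3 each), a log2 fold change of 0.35 (SE 0.18, edgeR adjusted p = 0.519). *Cxcl14*, a chemokine gene whose start lies at -313 kb, was the only 1 of the 4 in which each *Nhe6*-knockout library was above each wildtype library (10.3% of all genes tested). It had 2.5 ± 0.549 and 0.780 ± 0.764 CPM (SD, n = 3 each), a log2 fold change of 1.67 (SE 0.87, edgeR adjusted p = 0.514). Within 500 kb of *Postn* lay 7 other genes of the counts, of which 6 were tested. Of these, 0 reached even an unadjusted p of 0.05 with edgeR, with log2 fold changes from -0.57 to 0.17. *Alg5*, an enzyme gene of protein glycosylation 374.4 kb downstream, had 38.0 ± 1.30 and 44.4 ± 3.38 CPM (SD, n = 3 each) and a log2 fold change of -0.23 (SE 0.12, edgeR adjusted p = 0.510).

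**Figure D5:**
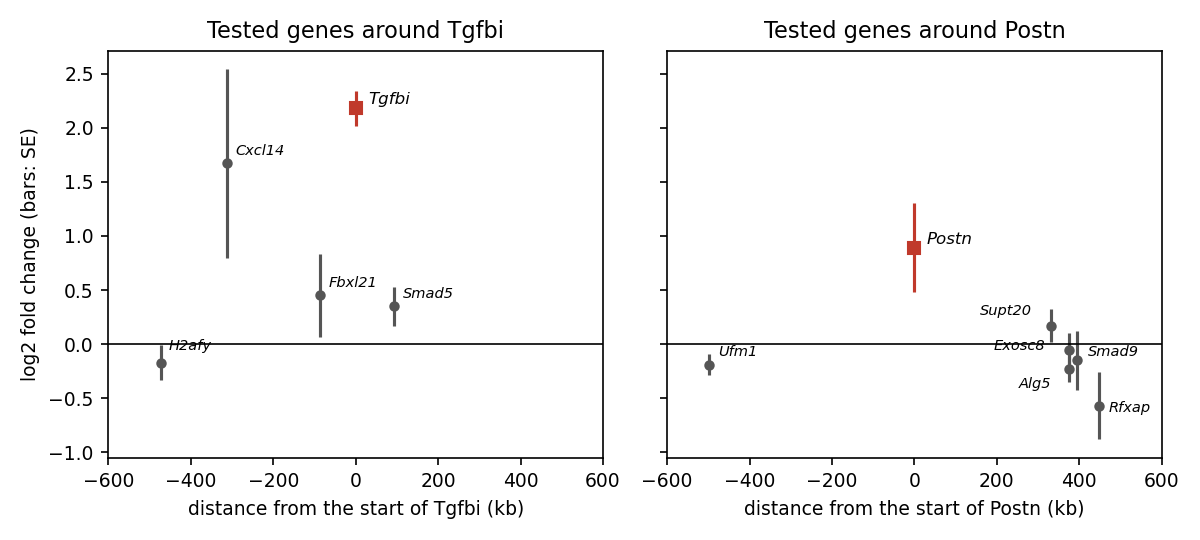
Log2 fold change (Nhe6-knockout over wildtype, from edgeR, with standard errors) of the members (red squares) and of the tested genes within 500 kb (grey points), against the distance of their starts from the start of Tgfbi (left) or Postn (right) in kb. The members stand at 2.18 and 0.89, and the tested neighbours lie between -0.57 and 1.67.

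Genes of the cell cycle, and the summed markers of mural cells, were also higher in *Nhe6*-knockout cultures, and their part in the levels of *Tgfbi* and *Postn* was not tested. Of 10 cell cycle genes, all tested, 0 were called by edgeR, 9 had an unadjusted p under 0.05 and DESeq2 called 9, all higher in *Nhe6*-knockout cells. Over all genes, 11.8% had an unadjusted p under 0.05 in edgeR's test and 4.69% were called by DESeq2. Their median log2 fold change was 2.96, and they summed to 452, 451 and 247 CPM in *Nhe6*-knockout against 94.5, 107 and 68.0 CPM in wildtype replicates 1 to 3. *Top2a*, the DNA topoisomerase gene of dividing cells, averaged 102 ± 31.9 CPM in *Nhe6*-knockout against 10.1 ± 3.82 CPM in wildtype cultures (SD, n = 3 each), a log2 fold change of 3.34 (SE 0.40, edgeR adjusted p = 0.0652). The cyclin gene *Ccnb1* and the proliferation marker *Mki67* had log2 fold changes of 3.49 and 3.45 (SE 0.63 and 0.60, edgeR adjusted p = 0.106 and 0.100). Without wildtype replicate 2, edgeR called 8 of the 10, against 2.88% of all genes tested. The 8 mural markers, all tested, summed to 781 to 809 CPM in *Nhe6*-knockout and 495 to 654 CPM in wildtype cultures. None of them was called by edgeR, and 5 were higher in each *Nhe6*-knockout library, against 10.3% of all genes tested. DESeq2 called 1 of the mural markers, *Notch3* (log2 fold change 1.24, SE 0.32, edgeR adjusted p = 0.209). *Abcc9*, encoding a subunit of a potassium channel of pericytes, averaged 7.14 ± 1.55 CPM in *Nhe6*-knockout against 1.42 ± 1.32 CPM in wildtype cultures (SD, n = 3 each), a log2 fold change of 2.33 (SE 0.89, edgeR adjusted p = 0.385). *Pdgfrb*, the growth factor receptor gene of mural cells and fibroblasts, was the most counted of the list and had a log2 fold change of 0.51 (SE 0.29, edgeR adjusted p = 0.554). It made up most of the sums, at 666 to 689 CPM in *Nhe6*-knockout and 283 to 607 CPM in wildtype cultures, and its value was 0.24 without wildtype replicate 2. The log2 fold change was above 0 for 6 of the 8 markers, and that of *Cspg4* was -1.27, or 0.55 without wildtype replicate 2. Without wildtype replicate 2 the value of *Notch3* was 1.64 and edgeR called it (adjusted p = 0.0307). No listed mural marker was at 0 in every library.

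Of the 7 endothelial markers tested, edgeR called 1 and DESeq2 called 2 (0.0668% and 4.69% of all genes), all lower in *Nhe6*-knockout cells. In edgeR's test 3 had an unadjusted p under 0.05, all lower, against 11.8% of all genes tested. For 2 markers each *Nhe6*-knockout library was below each wildtype library, against 9.57% of all genes tested. *Cdh5*, encoding VE-cadherin, had 7.98, 8.43 and 6.49 CPM in *Nhe6*-knockout against 91.0, 189 and 126 CPM in wildtype replicates 1 to 3. This gave a log2 fold change of -4.15 (SE 0.31, edgeR adjusted p = 0.0133), and the 12 markers summed to 576 to 890.1 CPM in *Nhe6*-knockout and 399 to 813 CPM in wildtype cultures. *Cdh5* was no longer called without any 1 of the *Nhe6*-knockout replicates or without wildtype replicate 3, with edgeR adjusted p of 0.0642 to 0.179. *Flt1*, encoding a receptor of vascular endothelial growth factor, had 20.96, 20.4 and 13.7 CPM in *Nhe6*-knockout against 33.4, 115 and 41.7 CPM in wildtype replicates 1 to 3. It was below the wildtype cultures in each *Nhe6*-knockout culture, with a log2 fold change of -1.79 (SE 0.50, edgeR adjusted p = 0.242, DESeq2 adjusted p = 0.0104), and of -1.04 without wildtype replicate 2. The third marker with an unadjusted p under 0.05, *Esam*, had a log2 fold change of -3.54 (edgeR adjusted p = 0.386) that rested on 8.61 CPM in wildtype replicate 2, and its genotypes overlapped. *Tek*, a further endothelial receptor gene, was called as higher without wildtype replicate 2 (log2 fold change 1.68, edgeR adjusted p = 0.0342). With all libraries the log2 fold change was above 0 for 3 of the 7 markers, *Emcn* (0.68), *Eng* (0.76) and *Tek* (0.67), none of them called. Without wildtype replicate 2 it was above 0 for 4 of the 7. The median of the tested markers was -0.42, or 0.11 without that library. Of 9 fibroblast markers, 7 were tested, 0 reached even an unadjusted p of 0.05 with edgeR, *Tcf21* was at 0 in every library, and the sums overlapped between the genotypes. The macrophage, melanocyte, epithelial and Schwann cell lists, with 8, 4, 5 and 3 genes tested, also had 0 genes with an unadjusted p under 0.05 with edgeR. Their summed levels overlapped between the genotypes, at 3.33 to 125 CPM, 10.4 to 42.5 CPM, 0.112 to 42.4 CPM and 14.6 to 29.0 CPM.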

How the data were processed

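Poly(A) RNA libraries (75 bp reads) were aligned by the authors to mm10 with STAR 2.7.7a and counted per gene with HTSeq 0.13.5, per the submitters' processing notes. The annotation and strand setting are not given in the sources used here. The deposited values are raw counts. The 5 summary lines of the counter (22.2% of reads) were left out, and 0 sample columns were without a sample.

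Counts were fitted with edgeR 4.0.16 (R 4.3.3, TMM scaling, filterByExpr with a minimum count of 10) and its two-sided quasi-likelihood test between genotypes, with Benjamini-Hochberg adjustment over 13479 genes and a threshold of 0.05. The script was tested on simulated data. DESeq2 1.42.0 and limma-voom (limma 3.58.1) were alternatives, with 14 alternatives in all. Levels are counts-per-million values, and per kilobase of exon where genes are compared. Because mice were pooled, p-values measure the spread between 3 cultures per genotype.

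The members and lists were chosen with earlier results of these data known. Named from each list were genes past the threshold and those with the largest fold change and no overlap between genotypes. The rule also took the most counted genes, of which some are named. *Col1a1*, *Bmp1*, *Tgfb1*, *Tgfb2*, *Tgfb3*, *Smad7*, *Comp* and *Tcf21*, and genes said to be below the filter, fall outside this rule and were chosen after their values were seen. The level of the targeted gene is not reported here. Sequences are from GENCODE M21 and RefSeq.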

Additional observations from a re-analysis of the deposited data

How the results depend on the processing

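The log2 fold change of *Tgfbi* lay between 2.13 and 2.25 under all 14 alternatives, but its place among the genes called did not hold in all. When any 1 of the *Nhe6*-knockout replicates, or wildtype replicate 1 or 3, was left out, 0 genes were called as higher. The same held with *Nhe6*-knockout replicates 1 and 2 summed, and with the replicate number as a block the only gene called as higher was *Top2a*. *Tgfbi* was thus not called in these settings. That of *Postn* lay between 0.63 and 1.52, which is also its range when 1 library was left out, with the highest value without wildtype replicate 2. The 9 genes called between the genotypes became 13 with upper-quartile scaling, 21 without a filter beyond 1 count, 21 with at least 10 counts in every library, 627 with DESeq2, 2 with the replicate number as a block and 1 with *Nhe6*-knockout replicates 1 and 2 summed. Leaving out 1 library gave 0 to 395 calls, the most without wildtype replicate 2. Of the listed genes other than the members, 1 was called, against 2 without the filter, 15 with DESeq2, 0 with the summed replicates and 0 to 12 when 1 library was left out. Deviations of same-numbered libraries correlated at 0.21, -0.19 and 0.11. With 3 libraries per genotype these values cannot settle whether the replicate numbers pair the cultures. The block gave 1 listed call, *Top2a*, in place of *Cdh5*. Of the genes followed through the alternatives, *Acta2*, *Col12a1*, *Thbs1* and *Col1a1* turned direction, and each was high in wildtype replicate 2. Other listed genes also turned without that library. These turns were found for 8 of 15 TGF-beta targets, *Acta2* among them, and 4 of 14 genes of TGF-beta ligands, latency proteins, receptors and Smads. They were also found for 2 of 11 genes of the integrin list and 3 of 7 fibroblast markers. *Acta2* went from -3.14 to 0.67 with limma-voom, 1.83 with the block and 3.63 without that library. *Col12a1* went from -0.73 to 1.12, 1.65 and 2.82 under the same settings, and *Thbs1* from -0.79 to 0.93, 1.67 and 3.05. *Col1a1* went from -3.35 to 0.21 with the block and 2.10 without that library. Leaving out 1 library at a time gave -4.07 to 3.63 for *Acta2*, -1.30 to 2.82 for *Col12a1*, -3.93 to 2.10 for *Col1a1* and -2.04 to 3.05 for *Thbs1*. The cause was not tested. *Cdh5* kept its direction but missed the threshold in 6 of 14 alternatives, among them without each of the *Nhe6*-knockout replicates and without wildtype replicate 3. All calls between the genotypes were 1, 1 and 0 without *Nhe6*-knockout replicates 1, 2 and 3, and 4 and 2 without wildtype replicates 1 and 3. With 3 cultures per genotype, a single library can decide a value, and the members had at least 3629 reads per library.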

Other observations

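Chromosome 13 held 481 of the 13411 tested genes with a position, and 3 of the 9 genes called by edgeR. These were *Tgfbi* and, 62.9 and 62.7 Mb away, *Gm7120* (log2 fold change 2.36) and *Nnt* (log2 fold change -1.61). Because *Tgfbi* was chosen from this contrast, the count of 3 is a description only. *Nnt* encodes the mitochondrial transhydrogenase and is known to carry a deletion in C57BL/6J but not in C57BL/6N mice. *Gm7120*, which lies near it, was also among the 5 genes nearest to *Tgfbi* in pattern. The part of strain background in the level of *Tgfbi* was not tested.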
